A study of Mus musculus with 24 samples.

Results

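Chaperones and heat shock proteins were followed in the hypothalamus of mice that were overfed by gastric infusion and of mice infused with water. The members were all genes of the count table whose symbol starts as an HSP70 (Hspa), HSP90 (Hsp90aa1, Hsp90ab1), HSP110 (Hsph1), small heat shock protein (Hspb), J protein (Dnaja, Dnajb, Dnajc), HSP60 and HSP10 (Hspd1, Hspe1), TRiC chaperonin (Tcp1 and the Cct genes) or prefoldin (Pfdn) gene, without Hspa5. They came to 82 of 55471 genes, and 77 of them were among the 18992 genes that passed the filter on low counts. The 5 others, Dnajb7, Dnajb8, Hspb2, Hspb7 and Hspb9, had mean counts between 1.48 and 7.57 reads per library and were not tested. The symbols do not all stand for cytosolic proteins: Hspa9, Hspd1, Hspe1, Dnaja3, Dnajc15 and Dnajc19 encode mitochondrial proteins, and Hspa13, Dnajb9, Dnajb11, Dnajc1, Dnajc3 and Dnajc10 encode proteins of the endoplasmic reticulum.

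Chow-fed male C57BL/6 J mice, 18 weeks old in the tissue collections of the study, carried a gastric catheter. ExpOF d14 mice received a liquid diet with added sucrose for 14 days at rates raised in steps to an energy surplus, and Control d14 mice received sterile water at the same rates. ExpOF d14+3 mice had the same overfeeding, then 3 days of water infusion after it ended on day 14, and Control d14+3 mice received water throughout and were killed on day 17. Each group held 6 mice, killed in a July or a September cohort with 3 mice of every group in each, and 1 library was made per mouse from poly-A RNA of the whole hypothalamus. All groups thus shared the surgery, the tether and the infusion. The study left out 1 Control d14 mouse for poor RNA quality, without naming it in the labels. A match of rebuilt mean levels to the study's own table pointed to Control d14 replicate 4. The labels give that replicate an RNA integrity number (RIN) of 9.8, and its library held 10922271 counted read pairs. It was left out, so 23 libraries were compared. Each held 8928182 to 34848437 counted read pairs, of which the members took 1.07% to 1.22%.

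Chaperones bind unfolded or partly folded proteins and let them fold, move or be broken down. HSP70 proteins work in cycles of ATP use that J proteins set in motion, HSP90 acts late on kinases and steroid receptors, and TRiC, a ring of different Cct subunits, folds actin and tubulin that prefoldin hands to it. Under heat or proteotoxic stress the heat shock factor HSF1 binds heat shock elements, repeats of a short inverted unit, and raises Hspa1a, Hspa1b, Hsph1, Dnajb1 and other inducible genes, while Hspa8 and Hsp90ab1 are made at a high level in unstressed neurons.

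The upstream sequence is shown first for Hspa1a, Hspa1b, Hspb1 and Hsph1, which are on the inducible list below, and for Hspe1. Hspe1 is a mitochondrial member outside that list. The sequences come first because Hspa1a and Hspa1b are almost the same gene and their values must be read with that in mind. The windows are those of RefSeq on GRCm38.p6, up to 250 bases before a start site, and capitals mark a pair of facing heat shock units, GAANNTTC or TTCNNGAA, both of which read the same on either strand and can overlap each other. The Hspa1a stretch is chr17:34972157-34972306, the Hspa1b stretch is chr17:34959239-34959388 and the Hspb1 stretch is chr5:135887769-135887918, each the 150 bases before the start site, with Hspa1a and Hspa1b on the minus strand and Hspb1 on the plus strand. For Hsph1 (minus strand, chr5:149636351-149636380) and Hspe1 (plus strand, chr1:55088053-55088082) the same bases overlap annotated exons, and only 30 bases around the matches are given.
Hspa1a: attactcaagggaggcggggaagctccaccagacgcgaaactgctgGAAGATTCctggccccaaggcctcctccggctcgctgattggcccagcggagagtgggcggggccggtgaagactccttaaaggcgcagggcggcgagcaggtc
Hspa1b: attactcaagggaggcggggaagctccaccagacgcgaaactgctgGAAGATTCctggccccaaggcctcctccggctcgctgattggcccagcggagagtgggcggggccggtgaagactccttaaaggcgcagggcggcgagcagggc
Hspb1: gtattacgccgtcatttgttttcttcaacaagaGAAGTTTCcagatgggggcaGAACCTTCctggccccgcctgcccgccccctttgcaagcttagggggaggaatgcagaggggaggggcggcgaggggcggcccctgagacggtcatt
Hsph1: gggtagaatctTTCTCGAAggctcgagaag
Hspe1: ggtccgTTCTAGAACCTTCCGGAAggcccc

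Over 150 bases the Hspa1a and Hspa1b stretches differed at 1 position, and over 250 bases at 3. The Hspe1 stretch held 3 overlapping matches in 1 run, and it lies upstream of Hspe1 inside the annotated span of Hspd1, which is on the opposite strand and overlaps the start of Hspe1 in the files' annotation. A match was found for 5 of the 6 inducible genes with a window (Hspa1a, Hspa1b, Hsph1, Hspb1 and Dnaja1, not Dnajb1), for 16 of 67 members (23.9%), for 2 of 7 TRiC genes (Cct2 and Cct5) and for 0 of 4 prefoldin genes, against 14.5% of the 27025 genes with a window. No window was given for Hspa8, Hsp90aa1 or Hsp90ab1. A match says only that these letters are present.

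Levels of the members spanned more than 3 orders of magnitude. Per kb of exonic length, the mean over 23 libraries ran from 0.231 CPM (Cct6b) through a median of 13.8 CPM to 624 CPM (Hsp90ab1). Hsp90ab1, the constitutive cytosolic HSP90, was highest in all 23 libraries, followed by Hspa8, the constitutive HSP70, with 288 CPM per kb and Hsp90aa1, the inducible HSP90, with 206 CPM per kb, and these 3 kept that order in every library. Pfdn5 (94.9 CPM per kb) and Cct8 (90.4 CPM per kb) came next, and Pfdn5 exceeded Cct8 in only 12 of 23 libraries. The levels of Pfdn5 and Cct8 did not differ beyond their spread.

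The 8 TRiC genes, whose proteins sit in the same ring, lay within a narrow band of 29.7 to 90.4 CPM per kb. Per kb, Cct8, Cct5 and Cct2 led it, and Cct3 was lowest. This order depends on the division by exonic length. In CPM without it, Cct8 (279) was followed by Cct7 (265), and Cct3 (189) lay above Cct4 (159). Per kb, neighbours Cct8 and Cct5 kept their order in 18 libraries, Cct5 and Cct2 in 17 and Cct7 and Cct4 in 15, while Cct4 exceeded Cct3 in all 23. Prefoldin subunits were less even, from 8.29 CPM per kb for Pfdn4 to 94.9 for Pfdn5. Among J proteins, Dnaja2 reached 67.5 CPM per kb, and Dnajc6, the neuronal auxilin that uncoats clathrin vesicles, and Dnajc5, the cysteine string protein of synaptic vesicles, reached 66.5 and 66.1. At the other end stood Hspa1a with 0.953 and Hspa1b with 0.577 CPM per kb, the genes that a stressed cell raises most. Of the 51-base windows of their transcripts, the length of a read, 66.1% and 62% also occur in other genes. That share was 39.1% for Hspa8, 47.3% for Hsp90aa1 and 3.25% for Hsp90ab1. The part of shared sequence in these levels was not tested.

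**Figure D1:**
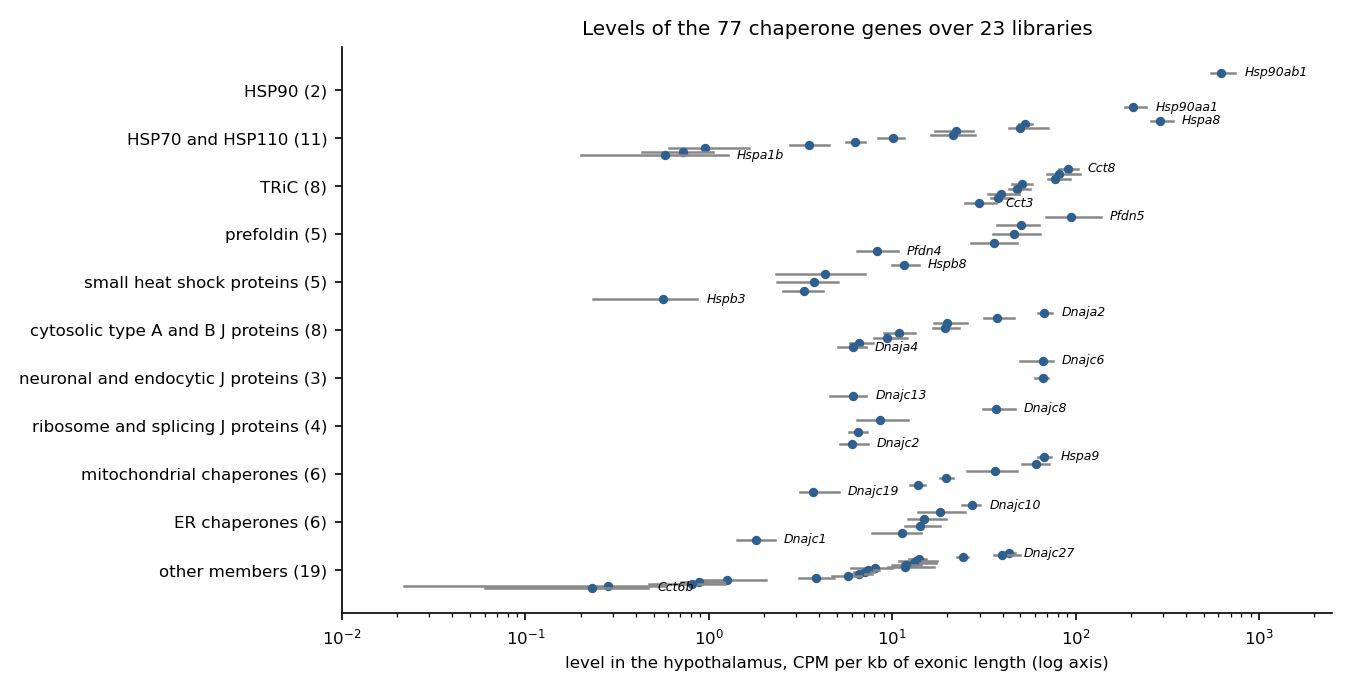
Level of each of the 77 tested members in CPM per kb of exonic length (log axis), grouped by family, with the number of members in brackets. Points are means over 23 libraries and lines run from the lowest to the highest library; the HSP90 genes and Hspa8 lie highest, from 206 to 624 CPM per kb, and Hspa1a and Hspa1b lie below 1.

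The tissue label was checked against markers. The 8 hypothalamic markers, neuropeptides and transcription factors such as Pmch, Hcrt and Agrp, summed to 411 to 1127 CPM per library with none at 0, and neurons, astrocytes and oligodendrocytes were represented in every library. Choroid plexus markers summed to 2979 CPM in 1 Control d14 library and to 1250 CPM in 1 ExpOF d14+3 library, against a highest value of 12.1 CPM in ExpOF d14 and 36.5 CPM in Control d14+3, and pituitary markers reached 105 CPM in 1 Control d14 library. Their part in the results below was not tested. In bulk tissue, fewer cells of a type and less RNA per cell cannot be told apart.

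At the end of overfeeding no member differed between ExpOF d14 and Control d14 by edgeR's quasi-likelihood test with Benjamini-Hochberg adjustment, where 1 gene of 18992 (0.00527%) passed. DESeq2 likewise called 0 members, against 1.03% of all genes, and the smallest adjusted p of a member in edgeR was 0.14. At an unadjusted p under 0.05 the members were split unevenly: 21 of 77 (27.3%) were lower in ExpOF d14 against 13.6% of all genes, and 7 (9.09%) were higher against 13.1%, so that 36.4% of members stood past that mark in either direction against 26.7% of all genes. The median log2 fold change was -0.07 over the members and -0.02 over all genes tested.

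The 5 prefoldin genes, which encode subunits of the complex that takes new actin and tubulin chains to TRiC, were all lower in ExpOF d14, with log2 fold changes from -0.33 to -0.19 and a median of -0.30. Each had an unadjusted p under 0.05, where 13.6% of all genes were lower at that mark, and none an adjusted one. Pfdn5 was at 104.9, 192, 126.9, 168 and 172 CPM in the Control d14 mice, replicates 1, 2, 3, 5 and 6, and between 109.9 and 136 CPM with a median of 119 in the 6 ExpOF d14 mice. The groups overlapped: Control d14 replicate 1 lay below every ExpOF d14 mouse, and replicates 2, 5 and 6 lay above all of them. The log2 fold change of Pfdn5 was -0.33 ± 0.12 (SE; adjusted p = 0.14 in edgeR; exact permutation p = 0.097, two-sided, 5 against 6 mice).

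For Pfdn1 the Control d14 mice stood in the same order, with 42.8, 71.4, 50.0, 60.2 and 66.1 CPM in Control d14 against 42.0 to 51.2 CPM (median 47.5) in ExpOF d14. Its log2 fold change was -0.32 ± 0.12 (SE; adjusted p = 0.14 in edgeR). Summed over the 5 genes, prefoldin counts were 289, 469, 329, 413 and 443 CPM in the Control d14 mice and 299 to 345 CPM (median 318) in ExpOF d14. Vbp1, the remaining prefoldin subunit, whose symbol the rule does not take, was 0.23 ± 0.12 higher (adjusted p = 0.21 in edgeR), so the subunits did not all lie on one side.

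All 8 TRiC genes were lower in ExpOF d14 as well, with log2 fold changes from -0.19 (Cct7) to -0.07 (Cct6a) and a median of -0.12. Among all genes 10150 of 18992 were lower. The 8 genes were measured in the same libraries, so their common sign is not 8 independent results. Cct7, Tcp1, Cct3 and Cct2 had an unadjusted p under 0.05, where 13.6% of all genes were lower at that mark. The smallest adjusted p was 0.16. Their sum was 1597, 2096, 1698, 1884 and 1938 CPM in Control d14 replicates 1, 2, 3, 5 and 6, and 1606 to 1811 CPM (median 1657) in ExpOF d14. Within Control d14, replicate 1 was the lowest mouse for 8 of 8 TRiC and 5 of 5 prefoldin genes, and replicate 2 was the highest for 8 of 8 TRiC and 3 of 5 prefoldin genes.

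**Figure D2:**
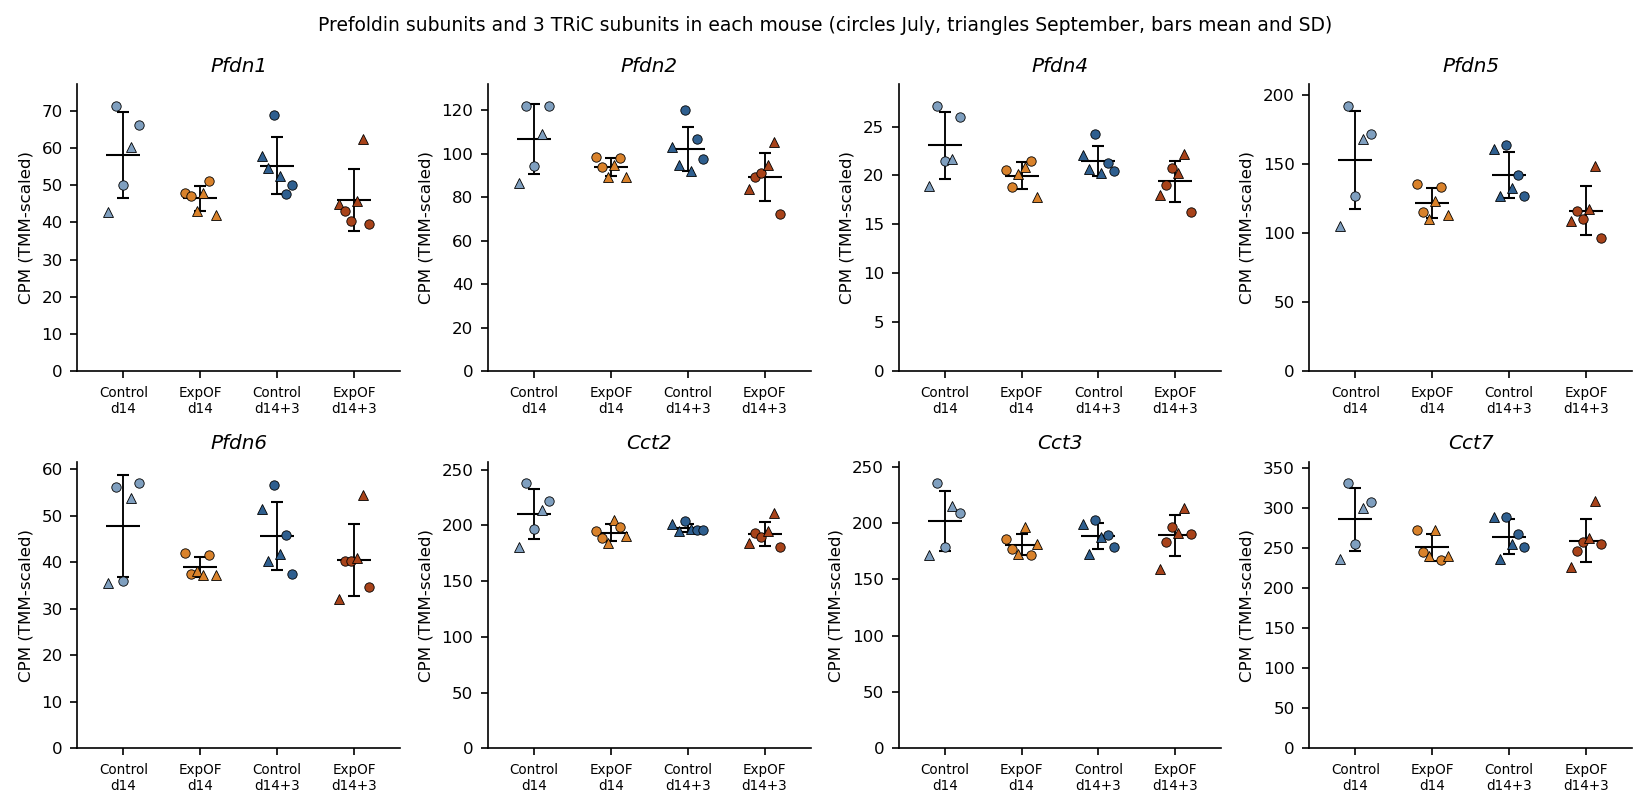
CPM of the 5 prefoldin genes and of 3 TRiC genes in each mouse, by group; points are mice (circles July, triangles September), bars the mean and SD of 5 or 6 mice. The ExpOF d14 mice cluster tightly, and the Control d14 mice spread more widely, as for Pfdn5 with 104.9 to 192 CPM against 109.9 to 136 CPM.

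Control d14 varied more than ExpOF d14 for most members: the SD as a percentage of the mean was larger in Control d14 for 71 of 77 members, with a median of 10.8% against 5.41%. Leaving out Control d14 replicate 1 changed the outcome: 25 of 78 members tested (32.1%) then passed the adjusted threshold, against 22.0% of all genes (4220 genes). Of these 25, 18 were lower in ExpOF d14, among them all 5 prefoldin genes and Cct2, Cct3, Cct5, Cct7 and Tcp1, and 7 were higher. Leaving out any other library of either group gave 0 members. With Control d14 replicate 4 put back, the median of the prefoldin genes was -0.78, that of the TRiC genes was -0.25 and 0 members passed. These counts of 0 stand without the share of all genes in the same fits.

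HSP90 and its partners were mixed. Hsp90ab1 was at 1761, 2072, 1817, 2225 and 2043 CPM in the Control d14 mice and at 1684 to 1838 CPM (median 1748) in ExpOF d14, a log2 fold change of -0.18 ± 0.07 (SE; adjusted p = 0.14 in edgeR; exact permutation p = 0.015). For Hsp90aa1 the log2 fold change was 0.01 ± 0.06. Dnajc9, a J protein that also acts as a histone chaperone, was -0.25 ± 0.07 (adjusted p = 0.14 in edgeR), with 31.8, 41.4, 31.2, 33.3 and 39.0 CPM in the Control d14 mice and 28.4 to 31.9 CPM (median 29.5) in ExpOF d14. Dnajc17, a nuclear J protein, and Dnajc4 had log2 fold changes of -0.39 ± 0.13 and -0.34 ± 0.12, both with an adjusted p of 0.14 in edgeR.

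Members on the higher side were mostly large genes. Dnajc1, a J protein of the endoplasmic reticulum membrane, was the single member whose groups did not overlap at day 14: 21.2, 16.6, 20.1, 18.5 and 17.7 CPM in the Control d14 mice against 21.4 to 26.8 CPM (median 22.1) in ExpOF d14. Among all genes 1.54% were higher without overlap and 0.958% lower. Its log2 fold change was 0.29 ± 0.09 (adjusted p = 0.14 in edgeR; exact permutation p = 0.0022, the smallest that 5 against 6 mice can give). Dnajc13, which acts on endosomes, stood at 0.27 ± 0.10, Hspa4l, an HSP110 family member, at 0.25 ± 0.09, Dnajc6 at 0.18 ± 0.07 and Dnajc15, of the mitochondrial import motor, at 0.12 ± 0.05 (adjusted p = 0.14 to 0.15 in edgeR).

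The direction followed the exonic length listed for each gene. The length of the expressed transcripts was not measured. Among the 26 shortest members (781 to 2732 bases of exon) 23 were lower in ExpOF d14 with a median log2 fold change of -0.22, among the 25 of middle length 20 were lower with a median of -0.10, and among the 26 longest (5004 to 15741 bases) 19 were higher with a median of 0.07. All genes tested showed the same gradient, with medians of -0.16, -0.05 and 0.09 in the corresponding length classes. Over the 77 members the correlation of log2 exonic length with the log2 fold change was r = 0.76, and over all 18992 genes r = 0.30, both as descriptions across genes that share the same libraries. The prefoldin genes (1109 to 2520 bases) are short. In the short class 1497 of 6463 genes and 14 of 26 members were lower at an unadjusted p under 0.05. Cct3 (6370 bases), Cct7 (6778 bases) and Tcp1 (5030 bases) belonged to the long class and were lower. In that class 7 of 26 members and 2052 of 6808 genes were lower. The part of length in the TRiC values was not tested.

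**Figure D3:**
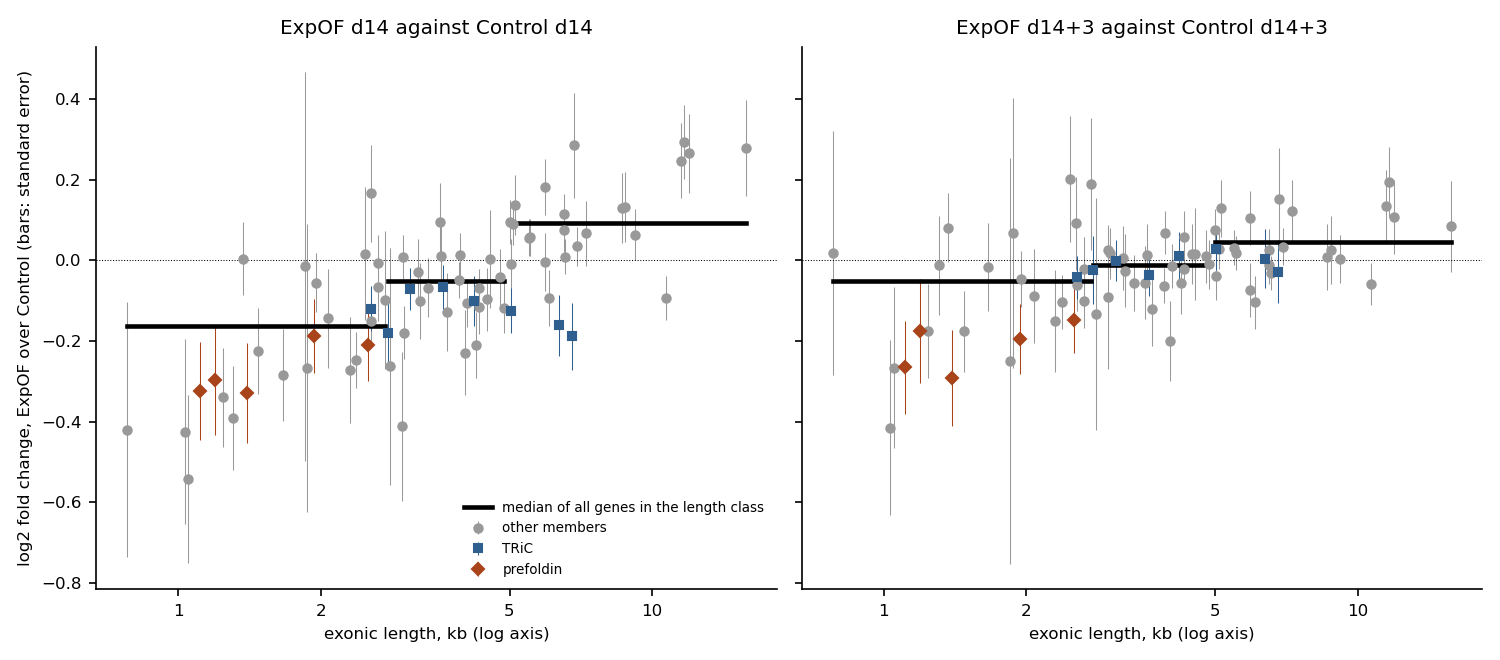
Log2 fold change of the 77 members against exonic length (log axis), at day 14 (left) and 3 days later (right), with standard errors; diamonds are prefoldin, squares TRiC, and black lines the median of all genes in each length class. At day 14 the members lie along a rising band, r = 0.76, and Cct3, Cct7 and Tcp1, of the long class by exonic length, lie under it. The correlation 3 days later was r = 0.56.

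RNA integrity moved with the groups: the mean RIN was 9.75 ± 0.14 (SD, n = 6) in ExpOF d14, 9.20 ± 0.86 (n = 5) in Control d14, 9.43 ± 0.45 (n = 6) in ExpOF d14+3 and 8.62 ± 1.09 (n = 6) in Control d14+3. Its part in the results was not tested beyond its use as a covariate, under which the prefoldin median at day 14 was -0.32. In a fit of the groups with RIN, 0 members (0% of all genes) had a slope past the adjusted threshold, and 2 had an unadjusted p under 0.05, Dnajc19 with 0.13 ± 0.05 and Dnajc3 with -0.076 ± 0.036 log2 units per RIN unit, against 6.42% of all genes. Cohort and extraction round gave 1 member each at that mark, Hspa1b, 0.42 lower in September (4.28% of all genes), and Hspb3, 0.54 higher in the second round (4.08%), and 0 members at the adjusted threshold.

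The prefoldin difference had the same sign in both cohorts. At day 14 the median log2 fold change of the 5 genes was -0.31 in July and -0.22 in September. That of the TRiC genes was -0.17 and -0.05. With replicate 4 left out, September held only Control d14 replicates 1 and 5. Their prefoldin sums were 289 and 413 CPM, against 300, 324 and 299 CPM in the September ExpOF d14 replicates 3, 4 and 6. Their TRiC sums were 1597 and 1884 CPM, against 1606, 1811 and 1656 CPM. In both sums replicate 1 lay below every September ExpOF d14 mouse and replicate 5 above. The September sign at day 14 thus rests on replicate 5. 3 days after overfeeding ended the prefoldin median was -0.36 in July and -0.075 in September.

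In recovery, ExpOF d14+3 against Control d14+3, again 0 members passed the adjusted threshold in edgeR (0% of all genes, 0 genes) or in DESeq2 (0.221% of all genes). At an unadjusted p under 0.05 stood 4 of 77 members (5.19%) against 7.11% of all genes: Dnajc1 was higher (1.30% of members against 2.91% of all genes), and Pfdn5, Pfdn2 and Pfdn1 were lower (3.90% against 4.20%). No member separated the groups completely, where 0.121% of all genes were higher and 0.300% lower without overlap. The members' median was -0.01 and that of all genes 0.01.

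All 5 prefoldin genes were again on the lower side, with a median log2 fold change of -0.19, where 9097 of 18992 genes were lower. Pfdn5 ranged from 96.0 to 149 CPM with a median of 113 in ExpOF d14+3 and from 127 to 164 CPM with a median of 137 in Control d14+3, a log2 fold change of -0.29 ± 0.12 (SE; adjusted p = 0.60 in edgeR; exact permutation p = 0.028, 6 against 6 mice). The overlap came from ExpOF d14+3 replicate 5, at 149 CPM, and the other 5 ExpOF d14+3 mice lay below all 6 Control d14+3 mice. Pfdn1 and Pfdn2 were at -0.27 ± 0.12 and -0.19 ± 0.09 (adjusted p = 0.66 and 0.68 in edgeR). TRiC was split, with 3 genes above 0 and 5 below and values from -0.04 to 0.03. Dnajc1 was at 0.20 ± 0.09 (adjusted p = 0.68 in edgeR), with 19.5 to 26.3 CPM (median 22.1) in ExpOF d14+3 and 16.8 to 22.5 CPM (median 19.4) in Control d14+3.

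Among the others with the smallest p, Hspb1, a small heat shock protein, was at -0.41 ± 0.22, Dnajc19 at -0.20 ± 0.10, Dnajc3, which guards translation at the endoplasmic reticulum, at 0.13 ± 0.07, Hsph1 at 0.12 ± 0.08, Hspa4l at 0.14 ± 0.09 and Dnajc6 at 0.11 ± 0.07, all with an adjusted p of 0.71 or more in edgeR.

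The difference between the 2 diet effects was tested as an interaction. No member passed (0% of all genes), and 2 members had an unadjusted p under 0.05, against 4.42% of all genes: Hsp90ab1, whose effect was 0.20 ± 0.09 log2 units higher in recovery than at day 14, and Dnajc17, 0.38 ± 0.18 higher. The 8 TRiC genes all had a positive interaction, from 0.03 to 0.17, with Tcp1 at 0.15 ± 0.08 (adjusted p = 0.90 in edgeR). Among all genes 9984 of 18992 had a positive interaction. For prefoldin the interaction lay between -0.01 and 0.12. From day 14 to day 17 all 8 TRiC genes were lower in the controls (median log2 fold change -0.09), where 9873 of 18992 genes were lower. In overfed mice 5 TRiC genes were higher and 3 lower (median 0.04). All 5 prefoldin genes were lower in the controls (median -0.07) and 4 of 5 in overfed mice (median -0.04). None of these genes passed the adjusted threshold in either time comparison.

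Between day 14 and day 17 the water-infused mice differed in 1 member. Hspa12a, a divergent HSP70 relative expressed in brain (chr19:58795750-58943654 of mm10, minus strand, overlapping Eno4 and Mir3086), rose from 195, 157, 182, 199 and 185 CPM in the Control d14 mice, replicates 1, 2, 3, 5 and 6, to 204 to 236 CPM (median 219.6) in Control d14+3. The log2 fold change was 0.26 ± 0.06 (SE; adjusted p = 0.045 in edgeR; exact permutation p = 0.0022, the smallest 5 against 6 mice can give), and DESeq2 called it as its only member. The groups did not overlap for Hspa12a, nor for Dnajc14, at 46.5 to 47.5 CPM in Control d14 and 47.8 to 55.4 CPM in Control d14+3. The share of all genes without overlap was not counted for this comparison. In all, 1.30% of members passed against 1.15% of all genes in edgeR and 2.80% in DESeq2, so the members' share was near the background. The call was lost without any of 7 of the 11 libraries, Control d14 replicates 2, 3 and 6 and Control d14+3 replicates 1, 2, 4 and 6 (adjusted p = 0.059 to 0.19), and in either cohort alone, where the log2 fold change was 0.27 in July and 0.22 in September.

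In overfed mice Hspa12a had values of 181 to 203 CPM (median 192) at day 14 and 196 to 252 CPM (median 219) at day 17, a log2 fold change of 0.20 ± 0.06 (adjusted p = 0.22 in edgeR; exact permutation p = 0.0043), and the interaction was -0.06 ± 0.09, so a difference between the 2 time courses was not shown. The sole other member at an unadjusted p under 0.05 in overfed mice was Hspa8, 0.14 ± 0.06 (adjusted p = 0.57 in edgeR), and 0 members passed (0% of all genes, 7.79% at the unadjusted mark, 1.00% in DESeq2). In the controls 6 members (7.79%) stood at the unadjusted mark against 12.7% of all genes, among them Dnajb5, 0.20 ± 0.07 higher, Dnajc14, 0.10 ± 0.04 higher, and Dnajc9, 0.16 ± 0.07 lower. Day and kill date cannot be told apart within a cohort. The time comparison of the controls uses the same Control d14 mice as the diet comparison at day 14, so their values are not independent.

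**Figure D4:**
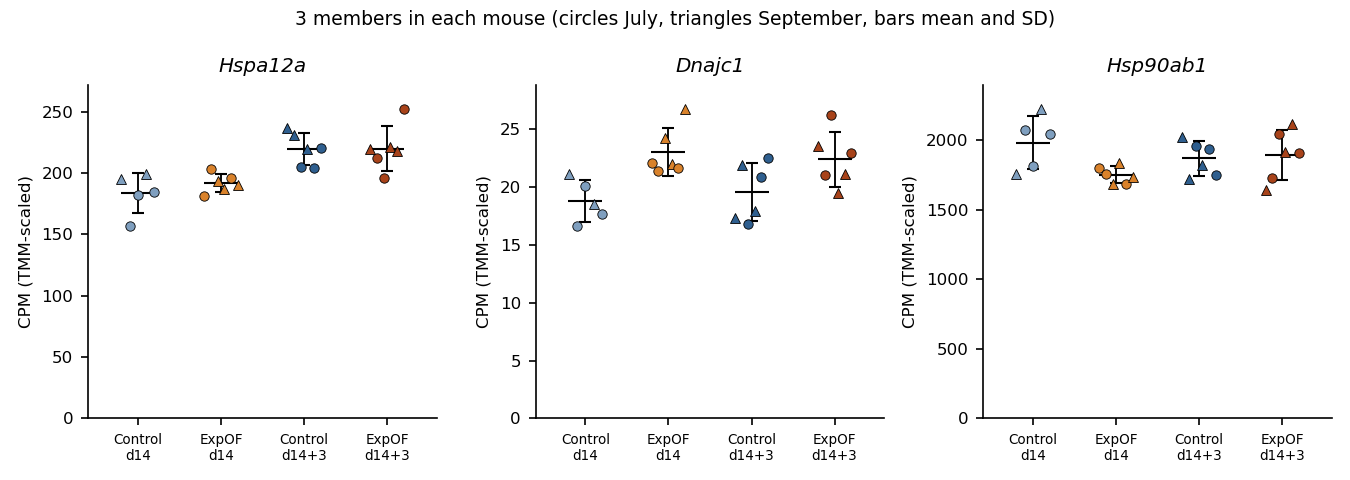
CPM of Hspa12a, Dnajc1 and Hsp90ab1 in each mouse; points are mice (circles July, triangles September), bars the mean and SD. Hspa12a lies above 200 CPM in every Control d14+3 mouse and below it in every Control d14 mouse, and Dnajc1 separates ExpOF d14 (21.4 to 26.8 CPM) from Control d14 (16.6 to 21.2 CPM).

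The list of 8 inducible heat shock genes held Hspa1a, Hspa1b, Hsph1, Dnajb1, Hsp90aa1, Hspa8, Dnaja1 and Hspb1. It thus takes in Hspa8, the constitutive HSP70. Among these 8 genes none passed the adjusted threshold between diets. At day 14, 3 of the 8 were above 0 and 5 below, with 1 (Hspa1a, lower) at an unadjusted p under 0.05, where 13.6% of all genes were lower, and in recovery 5 were above and 3 below, with 0 at that mark against 7.11% of all genes. Hspa1a was at 3.12, 4.92, 2.83, 3.08 and 3.504 CPM in the Control d14 mice and at 2.25 to 3.00 CPM (median 2.56) in ExpOF d14, a log2 fold change of -0.41 ± 0.18 (adjusted p = 0.16 in edgeR). These are low counts, and 58.6% of the 51-base windows of Hspa1a transcripts also occur in Hspa1b, so the 2 genes cannot be counted apart with certainty. For others on the list, 49.9% of such windows for Hspb1, 47.3% for Hsp90aa1 and 39.1% for Hspa8 occur in at least 1 other gene or pseudogene.

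ExpOF d14+3 replicate 3, a July mouse, stood apart in these genes. It was the highest of all 23 libraries for 5 of the 8: Hspa1b, Hsph1, Dnajb1, Hsp90aa1 and Dnaja1. Hsph1, the HSP110 that frees HSP70 of its nucleotide, was at 513 CPM in that mouse and at 324 to 376 CPM in the other 5 of its group, and at 315 to 384 CPM in all other 22 libraries. Hspa1b was at 3.57 CPM against 0.566 to 1.47 CPM in the rest of the group, Dnaja1 at 221 against 148 to 186 CPM, and Hsp90aa1 at 955 against 767 to 839 CPM. Hspa8 (rank 4 of 23) and Hspb1 (rank 10) were not extreme there. For Dnajb1 the margin was small, 74.4 CPM against 74.1 CPM in the next mouse.

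**Figure D5:**
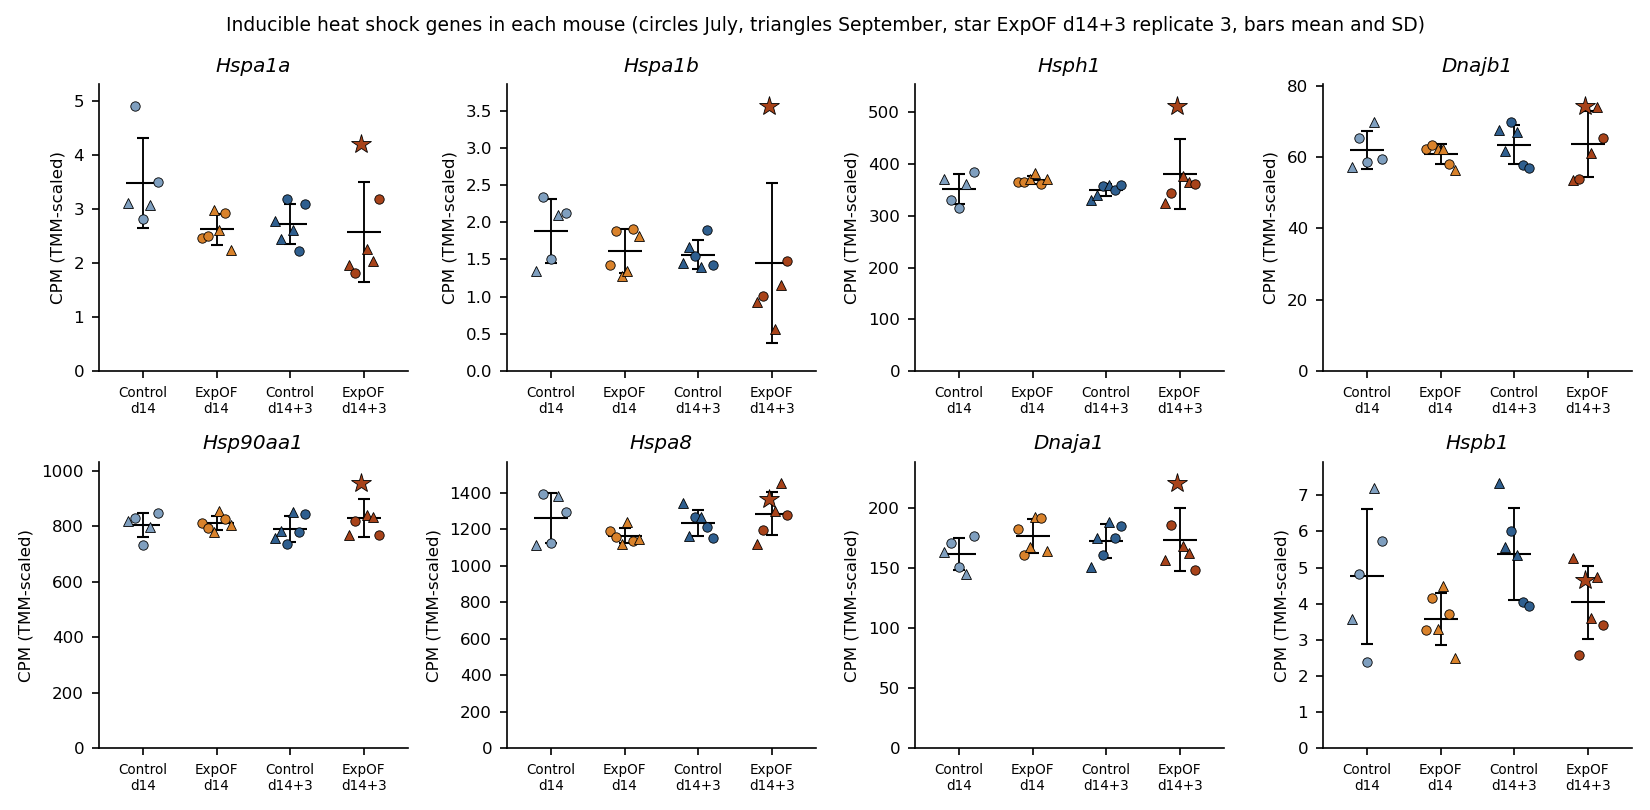
CPM of the 8 inducible heat shock genes in each mouse, by group; circles are July and triangles September mice, the star is ExpOF d14+3 replicate 3, and bars give the mean and SD. The star lies on top in Hspa1b, Hsph1, Dnajb1, Hsp90aa1 and Dnaja1, at 513 CPM for Hsph1 against at most 384 CPM elsewhere.

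Covariation was tested for 6 relations of Hspa1b with other genes of the inducible list, as deviations of log2 CPM from group means over 23 libraries. Hspa1b varied with Hspa1a (Pearson r = 0.61, permutation p = 0.0031, adjusted p = 0.018; Spearman rho = 0.41, p = 0.052) and with Hsph1 (r = 0.61, permutation p = 0.015, adjusted p = 0.044; rho = 0.06, p = 0.77), and with Dnajb1, Hsp90aa1, Hspa8 and Hspb1 less (r = 0.43, 0.42, 0.35 and 0.23, adjusted permutation p from 0.07 to 0.29). Both relations rest on 1 mouse. Without the 2 libraries farthest from the median of Hspa1b, ExpOF d14+3 replicates 3 and 4, r was 0.38 with Hspa1a and 0.19 with Hsph1, and without replicate 3 alone 0.26 and -0.11. In July r was 0.73 with Hspa1a and 0.85 with Hsph1 (12 mice), and in September -0.66 and -0.40 (11 mice), so the pooled relation did not hold within both cohorts.

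Genes that work with the members were taken from a list of 33 co-chaperones, cofactors and heat shock factors, all tested. At day 14 none passed the adjusted threshold, and 6 were higher and 5 lower at an unadjusted p under 0.05, against 13.1% and 13.6% of all genes. Chordc1, an HSP90 partner, was 0.44 ± 0.15 higher, while Hscb, a J protein of iron-sulfur cluster assembly, was 0.47 ± 0.11 lower, Bag1, a nucleotide exchange factor, 0.32 ± 0.11 lower and Cdc37, which brings kinases to HSP90, 0.32 ± 0.12 lower (adjusted p = 0.14 each in edgeR). Hsf1, the heat shock factor itself, was at 0.03 ± 0.07. In recovery 2 were higher and 2 lower at that mark, against 2.91% and 4.20% of all genes, with Hsp90b1, the HSP90 of the endoplasmic reticulum, at 0.20 ± 0.07 and Bag3, a partner of HSP70 in autophagy, at -0.27 ± 0.08 (adjusted p = 0.48 and 0.44 in edgeR).

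Of the members of the endoplasmic reticulum 5 of 6 were higher in overfed mice at both days, where 8842 and 9895 of 18992 genes were higher. Their median log2 fold changes were 0.15 at day 14 and 0.11 in recovery, and Dnajc1 had the smallest p. Dnajc1, Hspa13, Dnajc3 and Dnajc10 belonged to the long class. In that class 4756 of 6808 genes were higher at day 14 and 4720 in recovery. A difference beyond length was not tested. The 6 mitochondrial members were lower in 5 of 6 cases at day 14 and in 6 of 6 in recovery, with medians of -0.06 and -0.08. Among all genes 10150 were lower at day 14 and 9097 in recovery. The 5 tested small heat shock proteins had a median of -0.27 at day 14 and -0.09 in recovery. None of these members passed the adjusted threshold. Across all members and groups the SD between mice was a median of 9.08% of the mean, from 2.94% for Dnajc14 to 50.2% for Dnajc22.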

How the data were processed

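Hypothalamus RNA of 24 mice was sequenced as poly-A libraries by the authors, who aligned read pairs with STAR to mm10 and counted them per gene with featureCounts 1.6.4. The deposited values are raw counts, and the strand setting is not given in the sources used here, so 46 of the 82 members, which overlap another gene, may share reads with it. Symbols were taken from GENCODE vM21. Control d14 replicate 4 was left out, since rebuilt mean levels matched the study's table only without it. Genes were filtered with filterByExpr (minimum count 10, total 15), scaled by TMM and tested with edgeR 4.0.16 in 1 fit of 4 groups (quasi-likelihood test, Benjamini-Hochberg over 18992 genes, threshold 0.05). DESeq2 1.42.0 was an alternative. Single members were tested by two-sided exact permutation of log2 CPM (prior count 2), relations by 100000 permutations. The fit was tested on simulated data. The members and lists were chosen with earlier results of these data known. Named were the inducible, HSP90, TRiC and prefoldin lists, in each comparison the 5 members with the smallest p in each direction, and the 5 highest per kb. Replicate numbers did not pair the mice: correlations of deviations of same-numbered mice lay between -0.23 and 0.22, and no comparison had every pair above 0.1. P-values measure the spread between mice; intervals of counting error are not added. The values of 1 gene of the pathway list are not reported here.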

Additional observations from a re-analysis of the deposited data

Results flagged for a closer look

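In groups of 5 or 6 mice, 10 of 228 gene and group combinations of the named members (4.39%) held a mouse separated from the rest by more than Dixon's 95% critical value, and chance alone flags about 1 in 20. Hsph1 in ExpOF d14+3 replicate 3 was at 513 CPM against 324 to 376 CPM in the other mice. Pfdn1 and Dnajc17 in ExpOF d14+3 replicate 5 were high, at 62.3 against 39.5 to 45.9 CPM and at 14.0 against 10.0 to 10.8 CPM. Cct4 in ExpOF d14 replicate 4 was high at 169 against 147 to 154 CPM. On the low side were Hspa2 in ExpOF d14 replicate 6 (22.1 against 26.3 to 28.4 CPM), Hspa14 in Control d14 replicate 1 (24.1 against 26.2 to 26.9 CPM), Dnajc9 in Control d14+3 replicate 2 (27.0 against 31.9 to 33.2 CPM) and Dnajc3 in Control d14+3 replicate 3 (63.8 against 73.5 to 77.9 CPM). Cct6b, a testis-type subunit at a low level here, was low in ExpOF d14 replicate 5 at 0.113 CPM and in ExpOF d14+3 replicate 6 at 0.177 CPM.

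Control d14 replicate 4, which entered no comparison, lay outside the range of the other 23 libraries for 61 of 77 members, above it for 38 and below it for 23.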

How the results depend on the processing

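Counts of members in this section stand without the share of all genes under the same alternative. The number of members past the threshold at day 14 was 0 under all alternatives except leaving out Control d14 replicate 1, and ranged from 0 to 25 over libraries left out. It stayed 0 in recovery and for the overfed time course under each alternative, for the interaction under each except the fit of only 2 groups, where it was not run, and for cohort, extraction round and RIN under DESeq2, DESeq2's size factors, the filter of at least 1 count, all 24 libraries and each library left out, the alternatives run for them. For Control d14+3 against Control d14 the single call, Hspa12a, became 0 with every gene of at least 1 count, with only these 2 groups fitted, in July or September alone, with RIN or with cohort and extraction round as covariates, and 0 to 1 over libraries left out. With the replicate number as a block it was also 0, with an adjusted p of 0.13 for Hspa12a; the numbers do not pair the mice, and the block changed no other count. The median log2 fold change over all members moved by less than the SD between mice (0.067) under each alternative, but that of prefoldin at day 14 went from -0.30 to -0.78 with all 24 libraries, beyond its SD of 0.22, and that of TRiC from -0.12 to -0.25, beyond its SD of 0.11. Of 1363 log2 fold changes of named members, 4 changed sign: with all 24 libraries Dnajc15 was at -0.076 at day 14 and 0.058 for the interaction, and in September alone Dnajc3 was at -0.013 in recovery and Dnajc22 at 0.092 over the overfed time course. The number of the 6 Hspa1b relations past the threshold was 2, 6 in July alone, 0 in September alone and 0 without ExpOF d14+3 replicate 3, a choice made after seeing the data. Hspa1b with Hsp90aa1 was at r = -0.036 with all 24 libraries and -0.26 in September, with Hspa1a at -0.66 and with Hsph1 at -0.40 in September, and without that replicate at -0.11 with Hsph1 and -0.11 with Hsp90aa1. The cause of these changes was not tested. Depth limits Hspa1a, Hspa1b and the 10 members under 5 CPM.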
